A study of Mus musculus with 23 samples.

Results

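The genes described here are the 3 D-type cyclins (Ccnd1, Ccnd2, Ccnd3) and the 7 cyclin-dependent kinase (CDK) inhibitors of the mouse, which are the Cip/Kip inhibitors Cdkn1a, Cdkn1b and Cdkn1c and the INK4 inhibitors Cdkn2a, Cdkn2b, Cdkn2c and Cdkn2d. They were picked by symbol, and their transcript counts were summed per gene. All 10 were found among the 43068 genes of the crush libraries and among the 22880 genes of the libraries with induced gene deletion. RNA of mouse sciatic nerves (SNs) was sequenced in 23 libraries, on a C57bl6 background by the labels. In the crush experiment (11 libraries, wild-type males), nerves were taken 3 days post crush (dpc, n = 4), from the contralateral side of mice with a crush (n = 4) and as uncrushed surgery controls (n = 3). In the second experiment (12 libraries, n = 3 each), Dicer iKO nerves carried P0-CreERT2 -/+ with Dicer1 flox/flox and Dgcr8 iKO nerves carried P0-CreERT2 -/+ with Dgcr8 flox/flox, and each had controls with the same floxed alleles and P0-CreERT2 -/-. All of these mice, controls included, had been given tamoxifen, and their nerves were taken 3 months post tamoxifen (mpT). The CreERT2 transgene is driven by a promoter fragment active in Schwann cells (SCs), so deletion is aimed at these and the other cells of the nerve keep both genes. The mutant mice had been preselected for an affected nerve morphology, which limits what they say about mutants in general. The mice were adults, and the labels give no age.

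D-type cyclins bind and activate Cdk4 and Cdk6, which phosphorylate the retinoblastoma protein and its relatives and so release E2F factors that switch on genes for DNA replication. INK4 proteins bind Cdk4 and Cdk6 directly and keep D-type cyclins away from them. Cip/Kip proteins act mainly on CDK2 complexes and also help to assemble cyclin D with its kinase. SCs of an intact adult nerve are quiescent, leave this state after nerve injury and divide, and Ccnd1 is known as the D-type cyclin of SC division in injured nerve.

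Total counts per library ranged from 6617716 to 12806066 in the crush experiment and from 5594859 to 10143244 in the iKO experiment. Levels across libraries are given as CPM (counts scaled to library size), normalized by TMM within each experiment, and 3 counts correspond to 0.234 to 0.453 CPM and 0.296 to 0.536 CPM in these experiments. Such limits cover counting error only, because the libraries carried no molecular identifiers and copies of 1 molecule can be counted repeatedly. The labels name different library kits for the experiments, so levels were not compared between them. SC lineage markers were present in every library (summed level of 4 markers, 1140 to 3296 CPM). Markers of myelinating SCs (4 genes, all detected) summed to 812 to 1234 CPM at 3 dpc against 20178 to 29479 CPM in the other crush libraries, and to 9262 to 20112 CPM in iKO nerves against 21359 to 35054 CPM in their controls. Macrophage and myeloid markers (7 genes, all detected) summed to 684 to 1670 CPM at 3 dpc against 82.8 to 149 CPM, and to 2373 to 6549 CPM in iKO nerves against 244 to 874 CPM. T and B lymphocyte markers were low, and not all 6 were detected in each group. They summed to 11.1 to 27 CPM in iKO nerves against 0.268 to 2.58 CPM in their controls. At 3 dpc they summed to 2.01 to 3.74 CPM against 3.03 to 7.63 CPM. Fewer cells of a type and less RNA per cell cannot be told apart in such bulk libraries. Whole-gene counts of Dicer1 were 82.1 ± 0.924 CPM in Dicer iKO and 89.1 ± 1.61 CPM in their controls, and those of Dgcr8 were 44.9 ± 7.72 CPM in Dgcr8 iKO and 38.3 ± 3.51 CPM in their controls (SD, n = 3). These counts include all exons and all cells, so they do not check the deletion of the floxed exons.

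**Figure D1:**
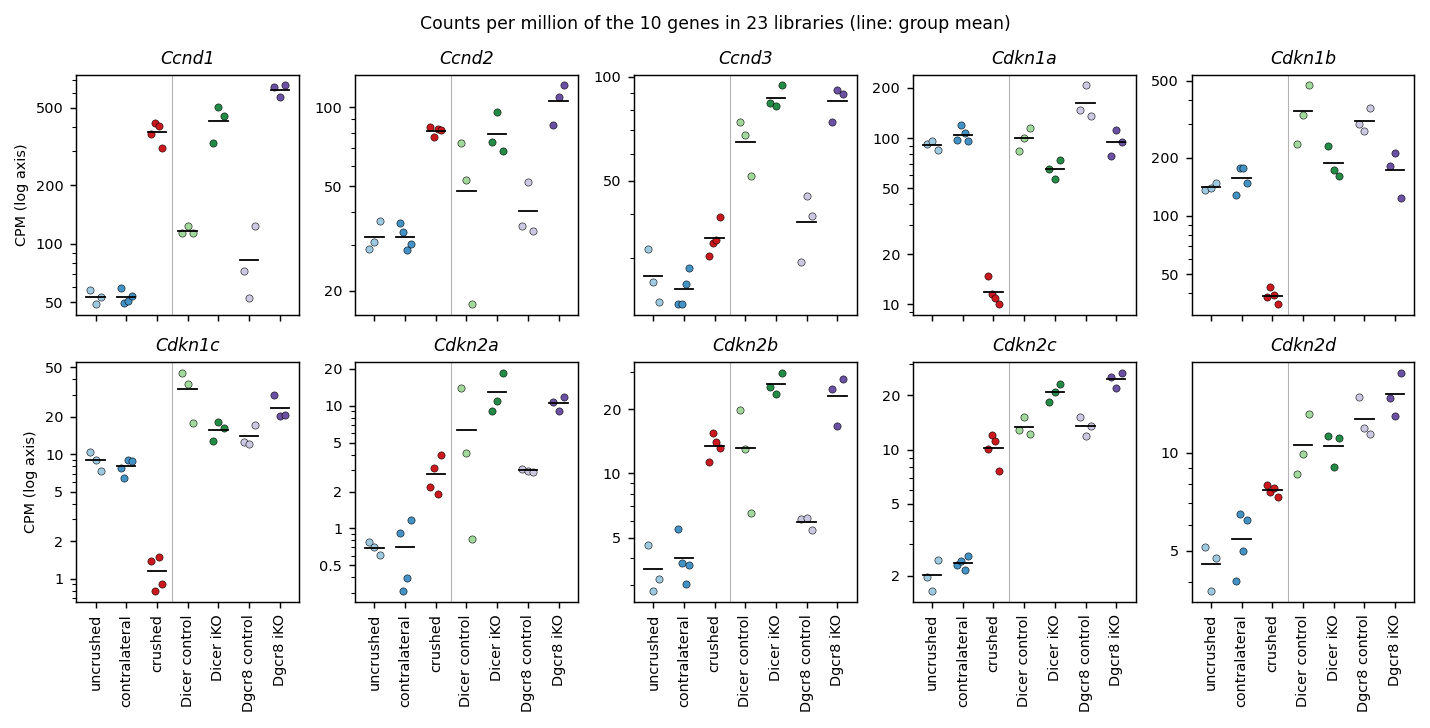
Level of each of the 10 genes in CPM (log axis) in every library, by group, with a black line at the group mean; the grey line separates both experiments, whose levels are not compared. At 3 dpc Ccnd1 lies at 312 to 416 CPM, above all other crush libraries, and Cdkn1a at 10.1 to 14.9 CPM, below all of them.

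To order the genes within a nerve, deposited TPM values were summed per gene, since TPM is scaled to transcript length. Cdkn1a and Cdkn1b led in all 4 kinds of control nerve. In uncrushed nerves they stood at 5.17 ± 2.03 and 4.41 ± 1.33 TPM (SD, n = 3), and in Dgcr8 controls at 168 ± 31 and 186 ± 36.4 TPM, with overlapping ranges in both cases. As shares of the summed inhibitor TPM of each library they stood apart in uncrushed nerves (44.1% to 49.3% for Cdkn1a, 39.1% to 43.1% for Cdkn1b). In Dgcr8 controls these shares overlapped (32.4% to 48.5% and 36.3% to 49.9%). Ccnd1 and Ccnd3 came next in each kind of control, and their TPM ranges overlapped as well. As shares of the summed D-type cyclin TPM of each library they stood apart in contralateral nerves (44.5% to 48.4% for Ccnd1, 32.4% to 39.5% for Ccnd3). In Dicer controls they stood apart the other way (35.6% to 46.3% and 49% to 50.3%). These shares overlapped in uncrushed nerves and in Dgcr8 controls. Cdkn2a was last in uncrushed, contralateral and Dgcr8 control nerves. At 3 dpc and in both mutants Ccnd1 was first, and its range did not overlap with that of the second gene. Ccnd1 made up 69.6% to 77.7% of the summed D-type cyclin TPM at 3 dpc against 41.4% to 48.4% in uncrushed and contralateral nerves. In Dicer iKO its share was 55.2% to 65.2% against 35.6% to 46.3% in the controls, and in Dgcr8 iKO 69.9% to 75.3% against 26.2% to 51.1%. No group overlapped with its control here, and the exact permutation test (two-sided) of the Ccnd1 share gave p = 0.0286 for crushed against contralateral nerves and p = 0.0571 for crushed against uncrushed nerves. The same exact test gave p = 0.1 in both mutants, the smallest value that 3 against 3 libraries allow, and over the 16 shares tested in this way each of these tests had an adjusted p of 0.16. The ratio of summed cyclin to summed inhibitor TPM ran from 0.235 to 0.352 in uncrushed and contralateral nerves and from 2.99 to 3.27 at 3 dpc. In Dicer and Dgcr8 iKO it ran from 0.955 to 1.38, and in their controls from 0.202 to 0.43.

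The crush comparisons asked how the 10 genes differ between an injured nerve and intact ones. Against uncrushed nerves 6 of the 10 genes were higher at 3 dpc and 3 were lower, where 33.8% of all 17433 genes tested were higher and 33.4% lower (quasi-likelihood test of edgeR, p adjusted by Benjamini-Hochberg, at most 0.05). The median log2 fold change was 0.93 over the 10 genes and -0.03 over all genes tested. Against contralateral nerves 6 were higher and 3 lower, where 33.5% of 16667 genes were higher and 32.9% lower. These comparisons share the crushed libraries and are given side by side.

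The D-type cyclins Ccnd1 and Ccnd2 rose in both comparisons. Ccnd1 stood at 57.7, 49.2 and 53.3 CPM in the uncrushed nerves, at 59.3, 49.8, 50.5 and 53.8 CPM in the contralateral nerves and at 368, 416, 403 and 312 CPM at 3 dpc. The crushed nerves were all far above the rest, by 6.44-fold against uncrushed nerves (log2 fold change 2.69, SE 0.12, adjusted p = 1.94e-09 by edgeR) and by 6.37-fold against contralateral nerves (adjusted p = 6.27e-12 by edgeR). Ccnd2, which is known for its part in the division of many progenitor cells, was at 28.7 to 36.8 CPM in the 7 intact nerves and at 84.3, 76.7, 82.9 and 82.2 CPM at 3 dpc. It rose 2.34-fold against uncrushed nerves (log2 fold change 1.23, SE 0.11, adjusted p = 1.18e-06 by edgeR). Ccnd3, the D-type cyclin best known from lymphocytes and muscle, was at 31.8, 25.6 and 22.3 CPM in uncrushed nerves and at 30.3, 33, 33.8 and 39.4 CPM at 3 dpc. These groups overlapped, and the difference did not pass (log2 fold change 0.23, SE 0.14, adjusted p = 0.162 by edgeR), but it passed without uncrushed replicate 1, the highest of its group (0.42, adjusted p = 0.0241 by edgeR). Against contralateral nerves (22.1, 22.1, 25.2 and 28 CPM) Ccnd3 rose by 0.36 on the log2 scale (SE 0.11, adjusted p = 0.0128 by edgeR).

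The Cip/Kip inhibitors all fell. Cdkn1a encodes p21, a classical target of p53. It stood at 92.4, 96.4 and 85 CPM in uncrushed nerves, at 97.7, 119, 107 and 95.3 CPM in contralateral nerves and at 14.9, 11.6, 10.9 and 10.1 CPM at 3 dpc. The gap is wide on either side, 8.33-fold against uncrushed nerves (log2 fold change -3.06, SE 0.12, adjusted p = 1.13e-09 by edgeR) and 9.68-fold against contralateral nerves. Cdkn1b encodes p27, an inhibitor abundant in many quiescent cells, and was at 137, 139.9 and 148 CPM in uncrushed nerves and at 38, 42.8, 38.8 and 35.2 CPM at 3 dpc (log2 fold change -1.99, SE 0.09, adjusted p = 2.37e-09 by edgeR). Against contralateral nerves, which ran from 129 to 178 CPM, Cdkn1b fell by 2.17 on the log2 scale. Cdkn1c encodes p57, the imprinted member of the family. Its level was 10.4, 9.06 and 7.33 CPM in uncrushed nerves and 1.4, 0.801, 1.5 and 0.903 CPM at 3 dpc, where it rested on 9 to 16 reads per library (log2 fold change -3.08, SE 0.24, adjusted p = 3.66e-07 by edgeR).

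The INK4 inhibitors moved the other way, and all 4 rose against uncrushed nerves. Cdkn2c, which encodes p18, was at 1.97, 1.65 and 2.44 CPM in uncrushed nerves, at 2.3, 2.41, 2.15 and 2.56 CPM in contralateral nerves and at 10.1, 12, 11.2 and 7.63 CPM at 3 dpc. It rose 4.71-fold against uncrushed nerves (log2 fold change 2.23, SE 0.21, adjusted p = 2.01e-06 by edgeR) and 3.93-fold against contralateral nerves. Cdkn2b, the p15 gene and neighbour of Cdkn2a, was at 4.61, 2.82 and 3.21 CPM in uncrushed nerves and at 11.3, 15.4, 14.1 and 13.1 CPM at 3 dpc (3.40-fold, adjusted p = 5.75e-06 by edgeR). Cdkn2a, which encodes p16Ink4a and p19Arf, was scarce. It had 9, 6 and 4 reads in the uncrushed libraries, 10, 4, 4 and 12 reads in the contralateral libraries and 25, 35, 19 and 40 reads at 3 dpc, and rose 3.62-fold against uncrushed nerves (log2 fold change 1.85, SE 0.39, adjusted p = 0.00113 by edgeR). Cdkn2d, the p19 INK4 gene, rose least, from 4.54 ± 0.701 CPM (n = 3) to 7.66 ± 0.277 CPM (SD, n = 4; log2 fold change 0.63, adjusted p = 0.00588 by edgeR). Against contralateral nerves its log2 fold change of 0.35 did not pass (adjusted p = 0.0637), but it did without contralateral replicate 2 (0.48, adjusted p = 0.0216 by edgeR).

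Contralateral and uncrushed nerves were compared to ask whether the intact side of an injured mouse differs. Of the 9 genes tested none passed, none had an unadjusted p under 0.05, and DESeq2 called 0 as well. Log2 fold changes ran from -0.26 for Cdkn1c (SE 0.17) to 0.17 for Cdkn2d (SE 0.21). Cdkn2a was too low to be tested. Among all 17722 genes 0% passed, while 17.9% had an unadjusted p under 0.05.

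**Figure D2:**
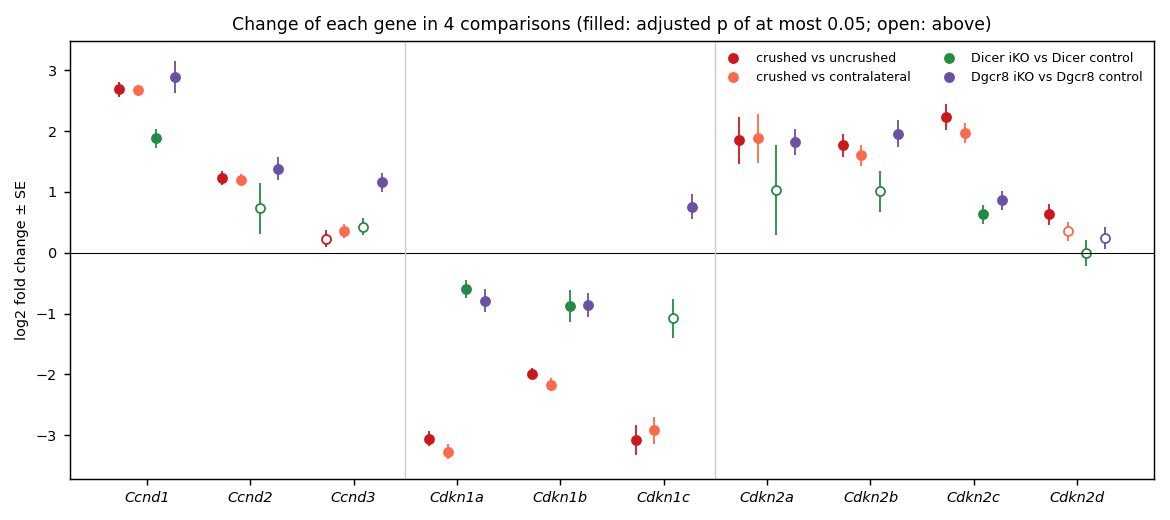
Log2 fold change of each gene in 4 comparisons, with the standard error as bars; filled points had an adjusted p of at most 0.05 and open points did not. Ccnd1 is the only gene with filled points above 1.8 in all 4 comparisons, and Cdkn1c is the only one with filled points on both sides of 0.

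The iKO comparisons asked what loss of the miRNA pathway in adult SCs does to these genes. Dicer cuts miRNA precursors into mature miRNAs, and Dgcr8 acts upstream of it, as a part of the microprocessor with Drosha. In Dicer iKO, 2 of the 10 genes were higher (Ccnd1, Cdkn2c) and 2 lower (Cdkn1a, Cdkn1b), where 12.3% of all 13045 genes tested were higher and 8.88% lower. The median log2 fold change was 0.53 over the 10 genes and -0.01 over all genes tested. Ccnd1 was at 114, 123 and 114 CPM in Dicer controls and at 329, 507 and 453 CPM in Dicer iKO. The mutants were all higher (3.68-fold, log2 fold change 1.88, SE 0.16, adjusted p = 0.00160 by edgeR), and Ccnd1 passed with each library left out in turn. Cdkn2c was at 12.9, 15.2 and 12.2 CPM in controls and at 18.4, 20.9 and 23 CPM in Dicer iKO (log2 fold change 0.63, SE 0.15, adjusted p = 0.0258 by edgeR). Cdkn1a was at 83.5, 99.8 and 115 CPM in controls and at 65.4, 57 and 73.4 CPM in Dicer iKO (log2 fold change -0.60, SE 0.15, adjusted p = 0.0262 by edgeR). Cdkn1b was at 235, 333 and 473 CPM in controls and at 231, 172 and 160.2 CPM in Dicer iKO, so that the highest mutant nearly reached the lowest control (log2 fold change -0.88, SE 0.26, adjusted p = 0.0474 by edgeR).

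The calls of these 3 smaller changes were lost when single libraries were left out. The adjusted p of Cdkn1a was 0.0873 without Dicer control 2, 0.0627 without Dicer iKO 1, 0.115 without Dicer iKO 2 and 0.0654 without Dicer iKO 3 (edgeR). That of Cdkn1b was 0.112 without Dicer control 2, 0.0638 without Dicer control 3, 0.168 without Dicer iKO 2 and 0.176 without Dicer iKO 3 (edgeR). For Cdkn2c it was 0.0506, 0.0584 and 0.0520 without Dicer control 1, 2 and 3 and 0.0919 and 0.106 without Dicer iKO 2 and 3 (edgeR).

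The other 6 genes did not pass in Dicer iKO, and several of them differed widely among the 3 controls. Cdkn2a was at 14.1, 4.15 and 0.815 CPM in Dicer controls 1, 2 and 3 and at 9.15, 11 and 18.7 CPM in Dicer iKO (log2 fold change 1.04, SE 0.74, adjusted p = 0.352 by edgeR). Ccnd2 was at 73.2, 53 and 17.9 CPM in the same controls and at 73.9, 95.6 and 68.4 CPM in the mutants (0.73, SE 0.42, adjusted p = 0.257 by edgeR). Cdkn1c was at 45.5, 36.6 and 17.8 CPM in controls and at 12.9, 18.1 and 16.3 CPM in the mutants (-1.08, SE 0.32, adjusted p = 0.0511 by edgeR). Cdkn2b was at 19.8, 13 and 6.52 CPM in controls and at 25.3, 23.5 and 29.7 CPM in the mutants (1.01, SE 0.34, adjusted p = 0.0734 by edgeR). All 4 of these genes were highest in control 1 and lowest in control 3. So was Ccnd3, while Cdkn1a and Cdkn1b, the genes called lower, were lowest in control 1 and highest in control 3. The fibroblast markers (4 genes, all detected) summed to 11328, 8502 and 3798 CPM in controls 1, 2 and 3 and to 12164 to 13125 CPM in Dicer iKO. The macrophage markers summed to 874, 507 and 259 CPM in these controls and the myelinating SC markers to 21359, 27493 and 35054 CPM, and the part of either in these levels was not tested. Without control 1, Cdkn2a (2.38, adjusted p = 0.0261), Cdkn2b (1.43, adjusted p = 0.0129) and Ccnd3 (0.54, adjusted p = 0.0340) passed, and without control 3 Cdkn1c did (-1.39, adjusted p = 0.00231, all by edgeR). Ccnd3 was at 74.1, 68.1 and 51.7 CPM in controls and at 84.1, 82.4 and 94.4 CPM in mutants with all libraries in (0.43, adjusted p = 0.0692 by edgeR), and Cdkn2d had a log2 fold change of 0.00 (SE 0.21).

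In Dgcr8 iKO, 7 of the 10 genes were higher and 2 lower, where 23.9% of all 13252 genes tested were higher and 20.6% lower. The median log2 fold change was 1.01 over the 10 genes and -0.01 over all genes tested. All 3 D-type cyclins rose. Ccnd1 was at 72.4, 52.4 and 124 CPM in Dgcr8 controls and at 638, 569.8 and 653 CPM in Dgcr8 iKO, with every mutant far above every control (7.44-fold, log2 fold change 2.89, SE 0.27, adjusted p = 1.63e-05 by edgeR). Ccnd2 was at 35.3, 51.9 and 33.9 CPM in controls and at 85.4, 109 and 121 CPM in mutants (log2 fold change 1.38, SE 0.19, adjusted p = 1.55e-04 by edgeR). Ccnd3 was at 29.2, 45.2 and 39.6 CPM in controls and at 74.2, 91.6 and 89.1 CPM in mutants (log2 fold change 1.16, SE 0.16, adjusted p = 2.14e-04 by edgeR). Neither gene overlapped between the groups.

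The INK4 genes Cdkn2a, Cdkn2b and Cdkn2c rose in Dgcr8 iKO as well. Cdkn2b was at 6.12, 6.17 and 5.4 CPM in controls and at 24.9, 16.6 and 27.8 CPM in mutants (3.90-fold, log2 fold change 1.96, SE 0.22, adjusted p = 4.78e-05 by edgeR). Cdkn2a was at 3.06, 2.95 and 2.91 CPM in controls, which were nearly alike, and at 10.7, 9.11 and 11.9 CPM in mutants (3.53-fold, log2 fold change 1.82, SE 0.22, adjusted p = 8.63e-05 by edgeR). Cdkn2c was at 15.1, 11.9 and 13.5 CPM in controls and at 25.4, 21.9 and 26.8 CPM in mutants (log2 fold change 0.86, SE 0.16, adjusted p = 0.00109 by edgeR). Cdkn2d overlapped between the groups and did not pass (0.24, SE 0.18, adjusted p = 0.314 by edgeR). Macrophage and myeloid markers were at 2373 to 5659 CPM in these mutants against 244 to 287 CPM in their controls. Fibroblast markers were at 8679 to 11210 CPM against 4100 to 5180 CPM. T and B lymphocyte markers were at 16.2 to 24.7 CPM against 0.268 to 0.519 CPM. The part of any of these in the changes of the 10 genes was not tested.

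The Cip/Kip genes Cdkn1a and Cdkn1b fell in Dgcr8 iKO. Cdkn1a was at 148, 207 and 135 CPM in controls and at 77.9, 112 and 94.8 CPM in mutants (log2 fold change -0.79, SE 0.19, adjusted p = 0.00520 by edgeR). Cdkn1b was at 298, 276 and 359.6 CPM in controls and at 180.5, 212 and 124 CPM in mutants (log2 fold change -0.86, SE 0.19, adjusted p = 0.00423 by edgeR). Both groups stood apart for both genes. Cdkn1c rose, from 12.5, 12.1 and 17.2 CPM to 30.2, 20.5 and 20.7 CPM (log2 fold change 0.76, SE 0.20, adjusted p = 0.0106 by edgeR), a call that was lost without Dgcr8 iKO 1, the highest library (0.56, adjusted p = 0.0554).

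The change in Dgcr8 iKO was tested against the change in Dicer iKO as an interaction over all 12 libraries. Of the 10 genes none passed, 4 had an unadjusted p under 0.05 and DESeq2 called 1, and among all 13552 genes 0.0148% passed and 13.7% had an unadjusted p under 0.05. Differences were all in the same direction for these 4 genes: Cdkn1c (1.85 on the log2 scale, SE 0.41, adjusted p = 0.141 by edgeR), Ccnd1 (1.02, SE 0.34, adjusted p = 0.233), Cdkn2b (0.96, SE 0.44, adjusted p = 0.354) and Ccnd3 (0.73, SE 0.24, adjusted p = 0.221). Cdkn1c is the gene called by DESeq2 (adjusted p = 0.00519). Without Dicer control 3, Cdkn1c (2.15, adjusted p = 0.00414) and Cdkn2b (1.29, adjusted p = 0.0497) passed by edgeR too. For the other 6 genes the unadjusted p ran from 0.215 to 0.940, so the higher number of calls in Dgcr8 iKO does not show that the mutants differ in them.

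RSEM, the authors' quantification tool, divides reads between the transcripts of a gene, and the transcripts of 3 inhibitor genes, Cdkn2c, Cdkn2a and Cdkn1b, were compared. Cdkn2c lies on the minus strand at chr4:109660876-109667189 (GRCm38). Its transcript ENSMUST00000097921 has an upstream first exon and is 2471 bases long, ENSMUST00000063531 starts further downstream and is 1106 bases long, and both hold the same coding sequence. The longer transcript was at 0.252 to 1.22 CPM in uncrushed, 0.144 to 1.48 CPM in contralateral and 6.83 to 10.4 CPM in crushed nerves, and at 1.67 to 1.78 CPM in Dgcr8 controls and 11.2 to 15.3 CPM in Dgcr8 iKO. It rose by 3.30 (SE 0.41, adjusted p = 9.23e-04) against uncrushed and 3.31 (SE 0.55, adjusted p = 0.00152) against contralateral nerves, and by 2.91 (SE 0.26, adjusted p = 0.00334) in Dgcr8 iKO on the log2 scale (edgeR over all transcripts, of which 35.2%, 39.9% and 14.7% passed in these comparisons). The shorter one did not pass in any of these comparisons, with log2 fold changes of 0.05 (SE 0.50), -0.28 (SE 0.38) and 0.05 (SE 0.22). In Dicer iKO neither passed, at 1.31 (SE 0.57) for the longer and 0.44 (SE 0.17) for the shorter transcript. The longer transcript took 81.5% to 89.6% of the Cdkn2c reads at 3 dpc against 6.68% to 62.3% in intact nerves, and 44% to 57% in Dgcr8 iKO against 11.4% to 14.9% in controls. The exact permutation test of this share gave p = 0.0286 against contralateral nerves, and p = 0.0571 against uncrushed nerves and p = 0.1 in Dgcr8 iKO, which are the smallest values those designs allow (adjusted p = 0.16 for each). The share rests on 14 to 31 reads of the gene in each intact crush library and on 76 to 231 reads in the other libraries described.

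Cdkn2a, on the minus strand at chr4:89274471-89294653 (GRCm38), has alternative first exons that give different proteins from shared downstream exons. The transcript of p19Arf, which acts on p53 through Mdm2, starts upstream (ENSMUST00000107131, first exon 89294334 to 89294653), and that of the INK4 protein p16Ink4a starts downstream (ENSMUST00000060501, first exon 89281986 to 89282192). The p19Arf transcript took 59.9% to 83.3% of the gene's 19 to 40 reads in crushed nerves, and was the one that could be tested there (log2 fold change 1.92, SE 0.47, adjusted p = 0.0169 against uncrushed nerves by edgeR). In the iKO experiment p16Ink4a took the larger share, 76.1% to 86.9% of the 91 to 102 reads in Dgcr8 iKO. There it rose from 1.64 to 2.75 CPM in controls to 7.92 to 10.2 CPM (log2 fold change 2.16, SE 0.34, adjusted p = 0.0117 by edgeR), while p19Arf went from 0.308 to 1.3 CPM to 1.19 to 2.56 CPM and did not pass (0.91, SE 0.66, adjusted p = 0.437). The share of p19Arf overlapped in all 4 comparisons (exact permutation p of at least 0.8 in both crush comparisons, 0.2 in Dicer iKO and 0.4 in Dgcr8 iKO), so a different change of the 2 transcripts was not shown. Kit and experiment cannot be told apart in the contrast between crush and iKO libraries. The stretches just upstream of both first exons are printed because these starts give different proteins and differ in base composition, and capitals mark a match to an E2F motif (TTTCCCGC, TTTCGCGC, TTTGCCGC or TTTGGCGC, either strand). Sequences are from RefSeq promoter windows of GRCm38.p6, which 7 of the 10 genes have, 11 windows in all (none was listed for Cdkn1c, Ccnd1 and Ccnd2).
Upstream of the p19Arf first exon, chr4:89294654-89294869, minus strand: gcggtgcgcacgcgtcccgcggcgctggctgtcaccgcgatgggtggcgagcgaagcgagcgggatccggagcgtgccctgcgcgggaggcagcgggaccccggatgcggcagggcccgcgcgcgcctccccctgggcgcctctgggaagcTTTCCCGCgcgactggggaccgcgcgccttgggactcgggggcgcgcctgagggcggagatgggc
Upstream of the p16Ink4a first exon, chr4:89282193-89282442, minus strand: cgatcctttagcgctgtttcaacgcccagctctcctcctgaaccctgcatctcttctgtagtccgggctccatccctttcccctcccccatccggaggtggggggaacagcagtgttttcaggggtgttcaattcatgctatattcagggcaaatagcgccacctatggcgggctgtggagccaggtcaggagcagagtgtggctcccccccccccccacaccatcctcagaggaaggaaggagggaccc
The 216 bases upstream of p19Arf hold 78.7% G and C and 1 E2F match, which begins 65 bases before the exon. The 250 bases upstream of p16Ink4a hold 60% G and C and no such match. Among the full windows of 300 bases the p19Arf window was the 1 of 11 with a match, and of all 32851 windows of that length 2.26% had one. A match of letters is not evidence of binding.

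Cdkn1b, on the plus strand at chr6:134920401-134925513 (GRCm38), has a transcript with an intron spliced out of its 3′ UTR (ENSMUST00000003115) and one that keeps it (ENSMUST00000067327). The spliced form fell by 1.30 on the log2 scale in Dgcr8 iKO (SE 0.21, adjusted p = 0.0119 by edgeR), and the form with the intron had a log2 fold change of -0.48 (SE 0.23, adjusted p = 0.238). The spliced form made up 33.8% to 36.4% of Cdkn1b reads in Dgcr8 iKO against 48.4% to 50.1% in controls, and 41% to 46.6% in Dicer iKO against 49.6% to 56% in controls. Neither mutant overlapped with its controls (exact permutation p = 0.1 in each, the smallest possible, adjusted p = 0.16), so a shift of the share did not pass. In Dicer iKO neither form passed (adjusted p = 0.0639 for the spliced form and 0.389 for the other by edgeR). At 3 dpc both forms fell, the spliced one by 2.40 and the other by 1.84 on the log2 scale against uncrushed nerves. The share of the spliced form overlapped there with both kinds of intact nerve (exact permutation p = 0.114 against uncrushed and 0.0571 against contralateral nerves).

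**Figure D3:**
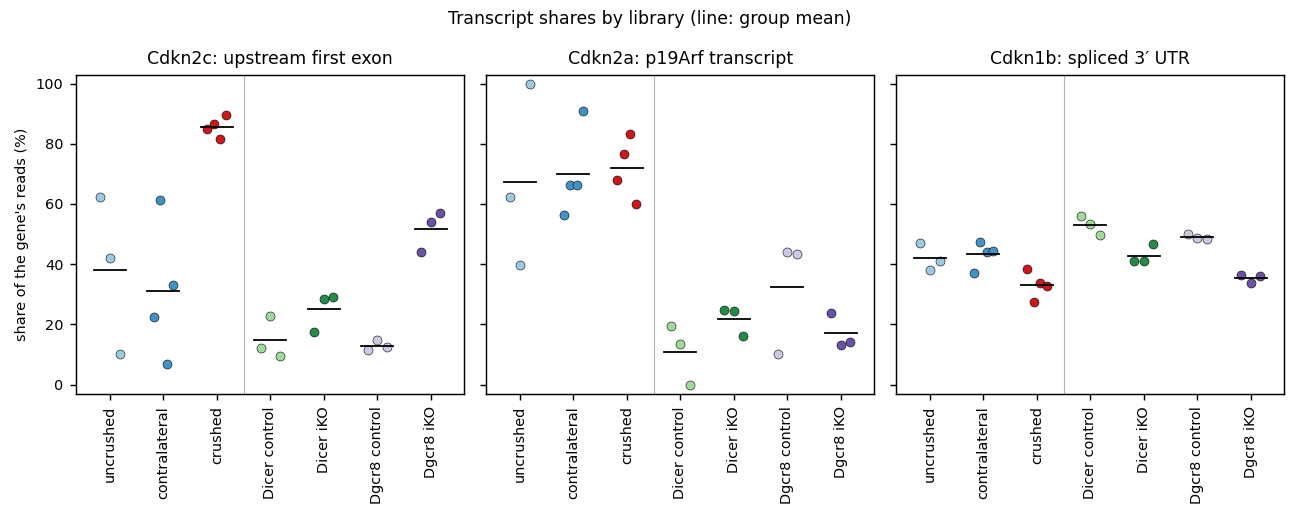
Share of a gene's reads (percent) assigned to 1 transcript in each library, for Cdkn2c (longer transcript with an upstream first exon), Cdkn2a (p19Arf transcript) and Cdkn1b (spliced 3′ UTR), with a black line at the group mean. Crushed nerves lie at 81.5% to 89.6% for Cdkn2c, and Dgcr8 iKO nerves lie below their controls for Cdkn1b.

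Because Dicer and Dgcr8 act in the miRNA pathway, the 3′ UTRs of the 10 genes were searched for matches to 6 miRNAs from families long studied with these genes. With such a choice, matches in some of these genes were likely beforehand. Of the miRNAs that the paper names as abundant in the nerve, let-7f and miR-26a were searched and others were not. A miRNA pairs with targets mainly through its seed, bases 2 to 8 from the 5′ end, shown in capitals in the RefSeq sequences (GRCm38.p6). Levels of mature miRNAs were not measured in these libraries. No pair of the 6 shares a seed.
let-7f-5p: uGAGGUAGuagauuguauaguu
miR-16-5p: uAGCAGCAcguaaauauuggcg
miR-17-5p: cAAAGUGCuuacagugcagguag
miR-26a-5p: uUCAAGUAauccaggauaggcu
miR-34a-5p: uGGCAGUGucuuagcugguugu
miR-221-3p: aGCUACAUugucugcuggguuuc
A match was counted for bases 2 to 8 of the miRNA, or for bases 2 to 7 followed by an A, in the 3′ UTR of the coding transcript with most reads in the iKO libraries. Ccnd2, whose 3′ UTR is 5173 bases long, held 11 matches, and Ccnd1, with 2676 bases, held 6. Cdkn1b and Cdkn2b held 3 each, Cdkn1a and Ccnd3 2 each and Cdkn1c 1. None was found in Cdkn2a, Cdkn2c and Cdkn2d, whose 3′ UTRs have 264, 373 and 907 bases. Genes with matches include the cyclins that rose in Dgcr8 iKO and inhibitors that fell in it. They also include the inhibitors Cdkn2b and Cdkn1c, which rose in it, while Cdkn2a and Cdkn2c rose without a match in the transcript searched. For Cdkn2c this was the shorter transcript, which did not pass in Dgcr8 iKO. Its longer transcript, which rose there, was not searched. Cdkn2b held 3.97 matches per kb, the most of the 10 genes, against 2.13 to 2.24 per kb in the cyclins. Counts summed over the 6 miRNAs were not set against other genes. Some of the sites are printed to show where they lie in the cyclins that rose and in the Cip/Kip genes, with the matched letters in capitals, in the direction of the transcript (GRCm38).
Ccnd1, let-7f-5p match at chr7:144930595-144930622, minus strand: acaggttcctgttcacaaTACCTCAtgt
Ccnd1, miR-16-5p match at chr7:144930392-144930419, minus strand: ctgttgtgcatgccaccaTGCTGCTggc
Ccnd1, miR-17-5p match at chr7:144931673-144931700, minus strand: aaaccattccatttcaaaGCACTTTtgg
Ccnd2, let-7f-5p match at chr6:127128297-127128324, minus strand: ttcaaagagagtattcttTACCTCAggt
Ccnd2, let-7f-5p match at chr6:127128219-127128246, minus strand: ttcttttcgttttcctaaTACCTCAcag
Ccnd2, miR-26a-5p match at chr6:127128923-127128950, minus strand: gcaaagttgtattcattgTACTTGAAga
Cdkn1b, miR-221-3p match at chr6:134924413-134924440, plus strand: tgcctctaaaagcattggATGTAGCAtt
Cdkn1c, miR-221-3p match at chr7:143458923-143458950, minus strand: ggctgggacctttcgttcATGTAGCAgg
The let-7f match of Ccnd1 lies at bases 2003 to 2009 after the stop codon, and the 3 let-7f matches of Ccnd2 begin at bases 2029, 2107 and 4743. Such matches are common in 3′ UTRs of this length. Among genes whose 3′ UTR has 80% to 120% of the length, 26.3% of 1861 held a let-7f match for Ccnd1 and 45.2% of 673 for Ccnd2. For miR-16-5p, with 3 matches in each of these genes, it was 45.1% and 65.4%. The share was 35.9% for miR-17-5p at the length of Ccnd1 and 56.2% for miR-26a-5p at that of Ccnd2. For miR-221-3p it was 37.4% of 1480 for Cdkn1b, with 3 matches, and 7.8% of 1986 for Cdkn1c, with 1 match. All these shares are of 3′ UTRs with at least 1 match, and how many held 3 or more was not counted. The Cdkn1b 3′ UTR searched was that of the form that keeps the intron (3439 bases). The spliced form, whose 3′ UTR is shorter, was not searched.

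The partners and targets of these genes were counted with the same test. Their counts are to be read against the shares of all genes tested, of which 33.8% rose and 33.4% fell in the comparison with uncrushed nerves, 33.5% rose and 32.9% fell in that with contralateral nerves, 12.3% rose and 8.88% fell in Dicer iKO, and 23.9% rose and 20.6% fell in Dgcr8 iKO. Cdk4 and Cdk6, the kinases that D-type cyclins activate, rose in all 4 comparisons. Cdk4 had log2 fold changes of 1.53 and 1.25 against uncrushed and contralateral nerves, 0.74 in Dicer iKO and 0.79 in Dgcr8 iKO, and Cdk6 had 1.16, 1.16, 1.27 and 1.99. Of 13 pocket proteins and E2F factors, 11 rose and 1 fell against uncrushed nerves, 9 rose and 1 fell against contralateral nerves, 3 rose and 1 fell in Dicer iKO (11 tested) and 6 rose and 1 fell in Dgcr8 iKO. Tfdp2, a partner of E2F factors, was the one that fell in each case (-0.82, -0.89, -0.67 and -0.55). E2f2 was highest in both mutants (2.60 and 3.12), E2f8 against uncrushed nerves (3.36) and E2f1 against contralateral nerves (3.44). Of 7 later cyclins and kinases, which drive DNA replication and mitosis, 7 rose in both crush comparisons, 3 in Dicer iKO and 6 in Dgcr8 iKO, and none fell. Ccnb2 led after crush (4.55 and 5.66), Cdk1 in Dicer iKO (4.67) and Ccnb1 in Dgcr8 iKO (5.15). Of 19 replication and mitosis genes, 19 rose in both crush comparisons, 8 of the 18 tested rose in Dicer iKO and 17 rose in Dgcr8 iKO, and none fell. The median log2 fold change of this list was 3.60, 3.50, 0.93 and 1.95, and its highest members were Mki67 against uncrushed nerves (4.84), Top2a against contralateral nerves (5.47) and in Dicer iKO (3.74) and Bub1 in Dgcr8 iKO (5.26). The count in Dicer iKO ran from 5 to 9 with single libraries left out.

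Cdkn1a, which fell in all 4 comparisons, is a target of p53, and 18 other genes of p53 and its targets were listed. Of all genes tested, 32.9% to 33.8% passed in each direction after crush, 12.3% rose and 8.88% fell in Dicer iKO, and 23.9% rose and 20.6% fell in Dgcr8 iKO, and several counts of the short lists were near these shares. Of the 18 p53 genes, 9 rose and 4 fell in both crush comparisons (17 tested), 5 rose and 1 fell in Dicer iKO, and 14 rose and 2 fell in Dgcr8 iKO. The median log2 fold changes were 0.50, 0.51, 0.28 and 0.93. Trp53, the p53 gene itself, rose in each (1.16, 0.71, 0.64 and 0.87). Gdf15, a secreted stress factor, was highest in both mutants (5.07 and 6.11), Eda2r was highest in both crush comparisons (1.89 and 2.77), and Sesn1 was lowest in all 4 (-2.18, -2.21, -0.80 and -1.09). In Dicer iKO the number that rose ran from 1 to 7 with single libraries left out. Of 8 genes for p27 turnover and FoxO factors, which degrade or transcribe Cdkn1b, Skp2 rose in all 4 (0.67 and 0.83 after crush, 1.18 in Dicer iKO, adjusted p = 0.00267 in Dgcr8 iKO) and Foxo4 fell in all 4 (-1.46, -1.73, -0.95 and -1.13). Of the 8 genes, 3 rose and 4 fell in the comparison with uncrushed nerves, 3 rose and 5 fell in that with contralateral nerves, 1 rose and 1 fell in Dicer iKO, and 2 rose and 3 fell in Dgcr8 iKO. Cks1b, a cofactor of Skp2, was the highest of them after crush (1.92 and 2.47). Of 6 genes of cyclin D turnover, 3 rose and 1 fell against uncrushed nerves, 3 rose and 2 fell against contralateral nerves, none rose and 2 fell in Dicer iKO, and 1 rose and 2 fell in Dgcr8 iKO. Fbxo31, an F-box protein, fell in all 4 (-0.96, -1.16, -0.47 and -0.63), and the small heat shock protein gene Cryab was the lowest in both mutants (-0.64 and -0.99). The F-box gene Fbxo4 was the highest against uncrushed nerves (0.77) and in Dgcr8 iKO (0.57), and the deubiquitinase gene Usp2 against contralateral nerves (0.65).

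Of 12 regulators of the Cdkn2a-Cdkn2b locus, 6 rose and 2 fell against uncrushed nerves, 6 rose and 3 fell against contralateral nerves, 3 rose and 2 fell in Dicer iKO, and 3 rose and 3 fell in Dgcr8 iKO, where the shares of all genes were 23.9% and 20.6% and the counts are near them. Hmga2, an architectural chromatin protein known for lowering expression of this locus in stem cells and itself a known let-7 target, was highest in all 4 (5.63, 5.66, 3.15 and 4.73). Cbx7, a Polycomb subunit known as a repressor of the locus, was lowest in all 4 (-2.83, -3.22, -0.96 and -1.36). Among 6 imprinted neighbours of Cdkn1c, 2 of the 4 tested fell and none rose against uncrushed nerves, 2 of the 3 tested fell and 1 rose against contralateral nerves, and 1 of the 3 tested fell and none rose in each mutant. H19, a non-coding RNA, was the gene that rose against contralateral nerves (0.73), and did not pass against uncrushed nerves (0.44, adjusted p = 0.0602 by edgeR). Igf2 fell in all 4 comparisons (-1.80, -1.74, -1.97 and -1.89), also in Dgcr8 iKO, where Cdkn1c rose, and Kcnq1ot1, the non-coding RNA of the Cdkn1c domain, fell after crush (-0.83 and -0.48).

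**Figure D4:**
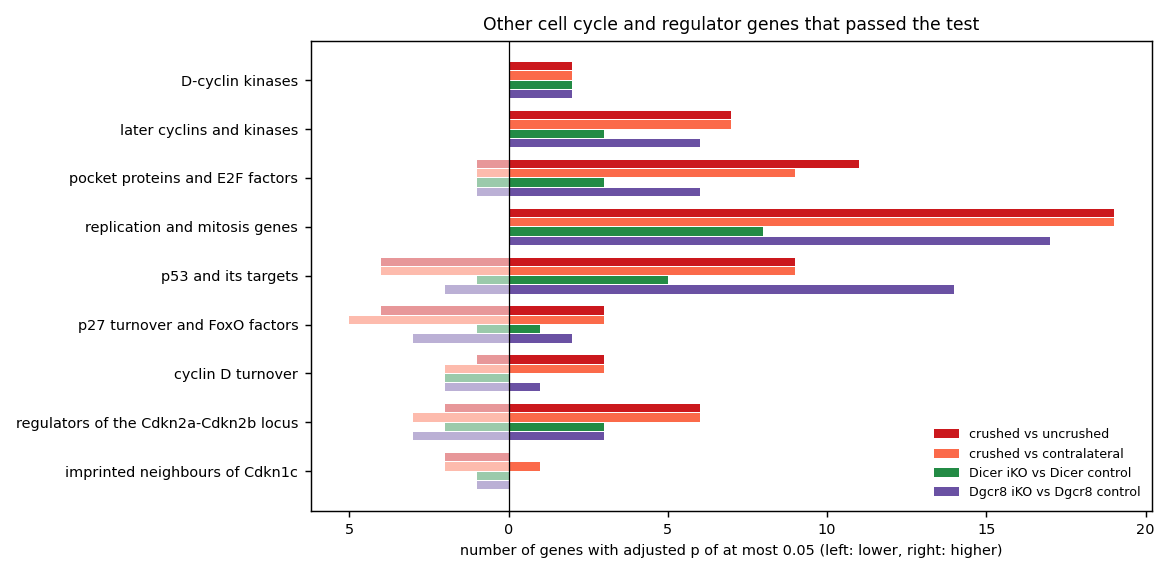
Number of genes of each list that were higher (right, full colour) or lower (left, pale) at an adjusted p of at most 0.05, for 4 comparisons. All 19 replication and mitosis genes are higher in both crush comparisons, 8 in Dicer iKO and 17 in Dgcr8 iKO.

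To place the 10 genes among others, each was correlated with 10106 genes of at least 5 CPM on average in both experiments, over all 23 libraries, as log2(CPM + 1) centred within each experiment. The libraries share group differences and normalization, so these values describe likeness and no more. Cdkn1a was most like Cdh1, the E-cadherin gene (Pearson r = 0.991), and Slco3a1 (r = 0.984), and Cdkn1b most like Sptan1 (r = 0.987) and Spg20 (r = 0.986). Ccnd1 was most like Panx1 (r = 0.980) and Cxcl14 (r = 0.979), and Cdkn2c most like Jpt1 (r = 0.991) and the profilin gene Pfn1 (r = 0.983). Ccnd2 was closest to Col6a3 (r = 0.940) and Slc4a7 (r = 0.936), and Ccnd3 to Tagap (r = 0.928) and Lrrk1 (r = 0.917). Cdkn2b followed Trf and Rgs10 (r = 0.969 each), and Cdkn2a followed Igf1 (r = 0.916) and Ptpro (r = 0.911). For Cdkn1c the closest genes were Sfrp5 (r = 0.917) and Mapt (r = 0.908), and for Cdkn2d Mmrn2 (r = 0.863) and Vps16 (r = 0.839). Among the 10 genes themselves, r was 0.90 between Cdkn1a and Cdkn1b, 0.89 between Cdkn2a and Cdkn2b, 0.91 between Cdkn2c and Ccnd1 and -0.84 between Cdkn1a and Ccnd1.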

How the data were processed

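RNA-seq of mouse SNs was analysed in 23 libraries of 7 groups, grouped by the labels. The authors trimmed reads with Trimmomatic, aligned them with STAR to GRCm38 and quantified transcripts with RSEM. The annotation release is not given in the sources used here. The files the authors deposited hold RSEM expected counts of transcripts, without normalization, which were added up per gene and rounded. The TPM values deposited by the authors, scaled to transcript length, were used to order genes within a library. They also gave the shares and the cyclin to inhibitor ratio of each library, which were set against each other between groups of an experiment. The deposited FPKM values were not used. No column of per-sample values was left out for want of a sample (0 columns). The labels name a SMARTer Stranded pico-input kit for the crush libraries, whereas the methods describe TruSeq with RiboZero. Gene symbols, positions and 3′ UTRs came from GENCODE on GRCm38.

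Each comparison was fitted on all genes of its groups with edgeR 4.0.16 (R 4.3.3): filterByExpr with a minimum count of 10, TMM normalization, the quasi-likelihood test and Benjamini-Hochberg adjustment over all genes tested. A gene passed at an adjusted p of at most 0.05. Each SE was derived from the log2 fold change and its F statistic. The interaction used all 12 iKO libraries. Shares were compared by exact two-sided permutation tests over libraries. The fit was tested on simulated data. Between replicates all 27 pairs differed by more than sampling noise (chi-square per degree of freedom 4.36 to 42.4). The paper took the uninjured contralateral nerve of mice with a crush as well. The crushed and contralateral groups can thus hold both nerves of a mouse, and the main test treated them as independent. For the crush nerves nothing used here ties a library number to one mouse, so p-values measure the spread between these samples. Total counts per library were 5594859 to 12806066. RSEM divides reads of shared exons, so transcript values are less certain than gene sums.

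The 10 genes and all lists were chosen with earlier results of these data known. Of each list, the genes with the highest and lowest log2 fold change among those that passed were named, and Cdk4 and Cdk6 always. One myelin marker is not reported here and was left out of the summed marker level. Trp53 and Kcnq1ot1 were named after their values were seen. For likeness, the 2 genes with the highest Pearson r were named per gene. As alternatives, the tests were repeated with RLE normalization, without the filter, at least 10 counts in every library, the replicate number as a block, DESeq2 1.42.0, all groups of an experiment in one fit, an adjusted p of at most 0.01, and leaving out each library in turn.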

Additional observations from a re-analysis of the deposited data

How the results depend on the processing

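Of the log2 fold changes that passed, none changed direction under any alternative run. Some that did not pass changed sign: Cdkn2d in Dicer iKO, Cdkn2b and Ccnd2 between contralateral and uncrushed nerves, and Cdkn1a, Cdkn1b and Cdkn2a in the difference between the mutants. The crush calls were the firmest, with 6 to 7 genes higher and 3 lower in both crush comparisons when single libraries were left out, and Dgcr8 iKO gave 6 to 7 higher and 2 lower. In Dicer iKO 1 to 4 were higher and 0 to 2 lower without single libraries, against 2 and 2 with all of them. There 1 was lower with at least 10 counts in every library, and 1 was higher and 0 lower at an adjusted p of at most 0.01. For the difference between the mutants, DESeq2 called 1 gene higher, and 0 to 2 were higher without single libraries. Without a filter on low counts Ccnd3 passed against uncrushed nerves (0.45, adjusted p = 0.00623 by edgeR) and Cdkn2d against contralateral nerves (0.52, adjusted p = 0.0127 by edgeR). In Dicer iKO, Cdkn1c passed under RLE normalization, without the filter, with DESeq2 and with all groups in one fit (adjusted p = 0.0497, 0.0392, 0.00878 and 0.0174), and Cdkn2b passed with the last 2 of these (adjusted p = 0.0264 and 0.0278). The share of Cdkn1b in the TPM of the 7 inhibitors at 3 dpc was 25.4%, and 26.3% from CPM over transcript length. The cause of these shifts was not tested.

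Same-numbered libraries deviated together with r between -0.206 and 0.236, and in no comparison was every pair above 0.1. Between crushed and contralateral nerves, 2 of the 4 crushed libraries were most like the contralateral library of their own number. Such correlations cannot tell whether crushed and contralateral libraries of equal number came from the same mouse. In the iKO experiment mutants and controls differed in P0-CreERT2 genotype, so libraries of equal number came from different mice. With the replicate number as a block, 1 of the 10 genes was higher and 0 were lower in Dicer iKO, where Cdkn1a (adjusted p = 0.0578), Cdkn1b (0.142) and Cdkn2c (0.0805) no longer passed by edgeR. Depth limited Cdkn2a in intact crush libraries, with 4 to 12 reads each.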
